A study of Mus musculus with 23 samples.

Results

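The levels of 10 heat shock chaperone genes were followed by name through the deposited expression table: Hspa1a, Hspa1b, Hspa8, Hsph1, Dnajb1, Hsp90aa1, Hsp90ab1, Hspb1, Hspd1 and Hspe1. All 10 were present among its 16259 genes, and all 10 averaged 10 or more normalized reads, as did the 11939 genes that were tested. RNA came from whole proximal small intestine of mice labelled male, with 11 libraries from Ddit4 knockout mice and 12 from wild-type mice. Ddit4 encodes an inhibitor of the growth kinase complex mTORC1. Doxorubicin, a chemotherapy that damages DNA, was given by intraperitoneal injection at 20 mg/kg to mice that had fasted for 24 h and were then refed (8 libraries, at 2, 6, 12 and 24 h) and to mice fed ad libitum (7 libraries, at the same times, with the knockout library of the 2 h time not analysed here). Untreated mice were refed after the fast (4 libraries, at 2 and 6 h), fasted for 24 h (2 libraries) or fed ad libitum (2 libraries). The time label counts from the drug treatment, and for untreated refed mice it is read here as hours of refeeding. For refed mice given doxorubicin the same hours are also taken as hours of refeeding, which is an assumption. The labels give no age and name no promoter or Cre driver for the knockout. Each combination of genotype, feeding, drug and time had 1 library. The knockout and wild-type libraries of a condition therefore stood in for replicates, and p-values speak of the scatter among such libraries. That scatter mixes differences between mice with technical ones. In the model of all libraries it also holds any knockout effect that varies with the condition.

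Heat shock chaperones bind unfolded proteins and help them fold, keep them soluble or pass them on for degradation. HSP70 proteins (Hspa genes) clamp exposed stretches of a client protein, J-domain proteins such as DNAJB1 bring clients to them and HSP110 proteins (Hsph1) open the clamp again. HSP90 proteins take over partly folded clients such as kinases and steroid receptors, while HSP60 (Hspd1) and its lid HSP10 (Hspe1) form a folding chamber inside mitochondria. Many of these genes are switched on together by the transcription factor HSF1, which binds heat shock elements, repeated GAA and TTC units that face each other with a short gap.

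RefSeq promoter windows of build GRCm38.p6, each running from 250 bases before to 50 after a transcription start, were at hand for 7 of the 10 genes. They were searched on both strands for a GAA and a TTC unit with 2 free bases between them, in either order (GAANNTTC or TTCNNGAA), and for 3 such units in a row, which holds overlapping pairs. A pair was in at least 1 window of 6 of the 7 genes, and in 15.1% of 32851 single windows of all genes. A run of 3 units was in at least 1 window of Hsph1, Hspe1 and Hspd1, and in 0.603% of all windows. Hsph1, Dnajb1 and Hspd1 had 2 windows each, so counts of genes and shares of windows are not in the same unit. Neither Dnajb1 window held a pair. Hspd1 window 1 held none either, and the units in Hspd1 window 2 are the same run that was counted for Hspe1. The sequences before the start of the genes with the largest changes are shown, with the matching units in capitals. Beside them is the stretch between the Hspe1 start and the Hspd1 start of window 2. A match describes letters only and is not evidence of binding.
Hspb1 is not shown, and its pairs began at positions -117 and -97 from its start.
Hspa1b, chr17:34959239-34959488, minus strand: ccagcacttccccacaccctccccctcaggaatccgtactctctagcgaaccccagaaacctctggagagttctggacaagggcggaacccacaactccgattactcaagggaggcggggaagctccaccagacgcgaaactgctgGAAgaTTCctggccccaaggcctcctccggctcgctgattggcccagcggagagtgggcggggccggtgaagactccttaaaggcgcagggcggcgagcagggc
Hspa1a, chr17:34972157-34972406, minus strand: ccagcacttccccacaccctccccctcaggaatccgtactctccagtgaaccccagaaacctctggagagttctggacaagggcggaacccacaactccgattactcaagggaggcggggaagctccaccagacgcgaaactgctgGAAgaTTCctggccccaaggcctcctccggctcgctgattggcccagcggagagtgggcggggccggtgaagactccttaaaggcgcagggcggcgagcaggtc
Hsph1, chr5:149636337-149636586, minus strand: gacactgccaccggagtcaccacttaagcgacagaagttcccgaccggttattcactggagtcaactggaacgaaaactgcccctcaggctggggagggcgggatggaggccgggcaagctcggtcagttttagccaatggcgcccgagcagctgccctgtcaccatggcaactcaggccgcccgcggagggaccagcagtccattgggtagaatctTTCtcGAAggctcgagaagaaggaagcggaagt
Hspe1, chr1:55087933-55088147, plus strand: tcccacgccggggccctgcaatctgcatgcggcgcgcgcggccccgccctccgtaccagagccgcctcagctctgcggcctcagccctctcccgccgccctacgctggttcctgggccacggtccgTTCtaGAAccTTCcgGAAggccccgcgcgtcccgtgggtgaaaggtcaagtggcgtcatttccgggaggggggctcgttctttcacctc

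The Hspa1a and Hspa1b stretches differed at 3 of 250 bases, and each held its pair at position -104. Hsph1 had a pair at -33 and 3 units in a row within the 50 bases after its start. Hspe1 and Hspd1 lie on opposite strands, and 1 of the 2 RefSeq starts of Hspd1 lies 216 bases from the Hspe1 start, facing away from it. The stretch between these starts held 4 units in a row, at -89 to -79 from the Hspe1 start by the first base of each pair. The other Hspd1 start lies inside Hspe1, and seen from there the stretch falls within Hspd1. In the GENCODE M21 annotation of mm10, the same assembly, these genes also overlap by 112 bases on opposite strands, and a predicted gene, Gm20481, overlaps 2225 bases of Hspa1a on the other strand. The libraries do not keep strand, so reads in such overlaps cannot be told apart. Hspa1a and Hspa1b are near-identical copies, so the split of reads between them is uncertain and their sum is given beside them. In mm10 coordinates Hspa1a lies at chr17:34969190-34972156, Hspa1b at chr17:34956436-34959238 and Hsp90ab1 at chr17:45567775-45573271, all on the minus strand. Hsph1 lies at chr5:149614287-149636376 (minus), Hspb1 at chr5:135887919-135889563 (plus), Hsp90aa1 at chr12:110690605-110702728 (minus), Hspa8 at chr9:40800984-40810087 (plus) and Dnajb1 at chr8:83608193-83612653 (plus). Hspd1 lies at chr1:55077835-55088243 (minus) and Hspe1 at chr1:55088132-55091307 (plus). Values are sums over whole genes.

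Reads in genes ranged from 11418115 to 23428519 per library (median 15524351). Ddit4 had 0 to 16 reads in knockout libraries and 48 to 399 in wild-type libraries. Enterocyte markers were high in every library, at 903262 to 1862000 normalized reads summed over 10 genes. Some libraries stood apart. Y-linked genes had at most 5 reads in 3 untreated knockout libraries (ad libitum, fasted and refed 2 h) against 1088 to 2030 in the other 20, although all are labelled male. Pancreatic acinar markers summed to 65114 normalized reads in the fasted knockout library and 167532 in the untreated wild-type library refed 6 h, and to at most 3444 in the other libraries. The titles and drug labels of 4 wild-type refed libraries (2, 6, 12 and 24 h) conflict, untreated in the title and doxorubicin in the label. Grouping followed the drug label.

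**Figure D1:**
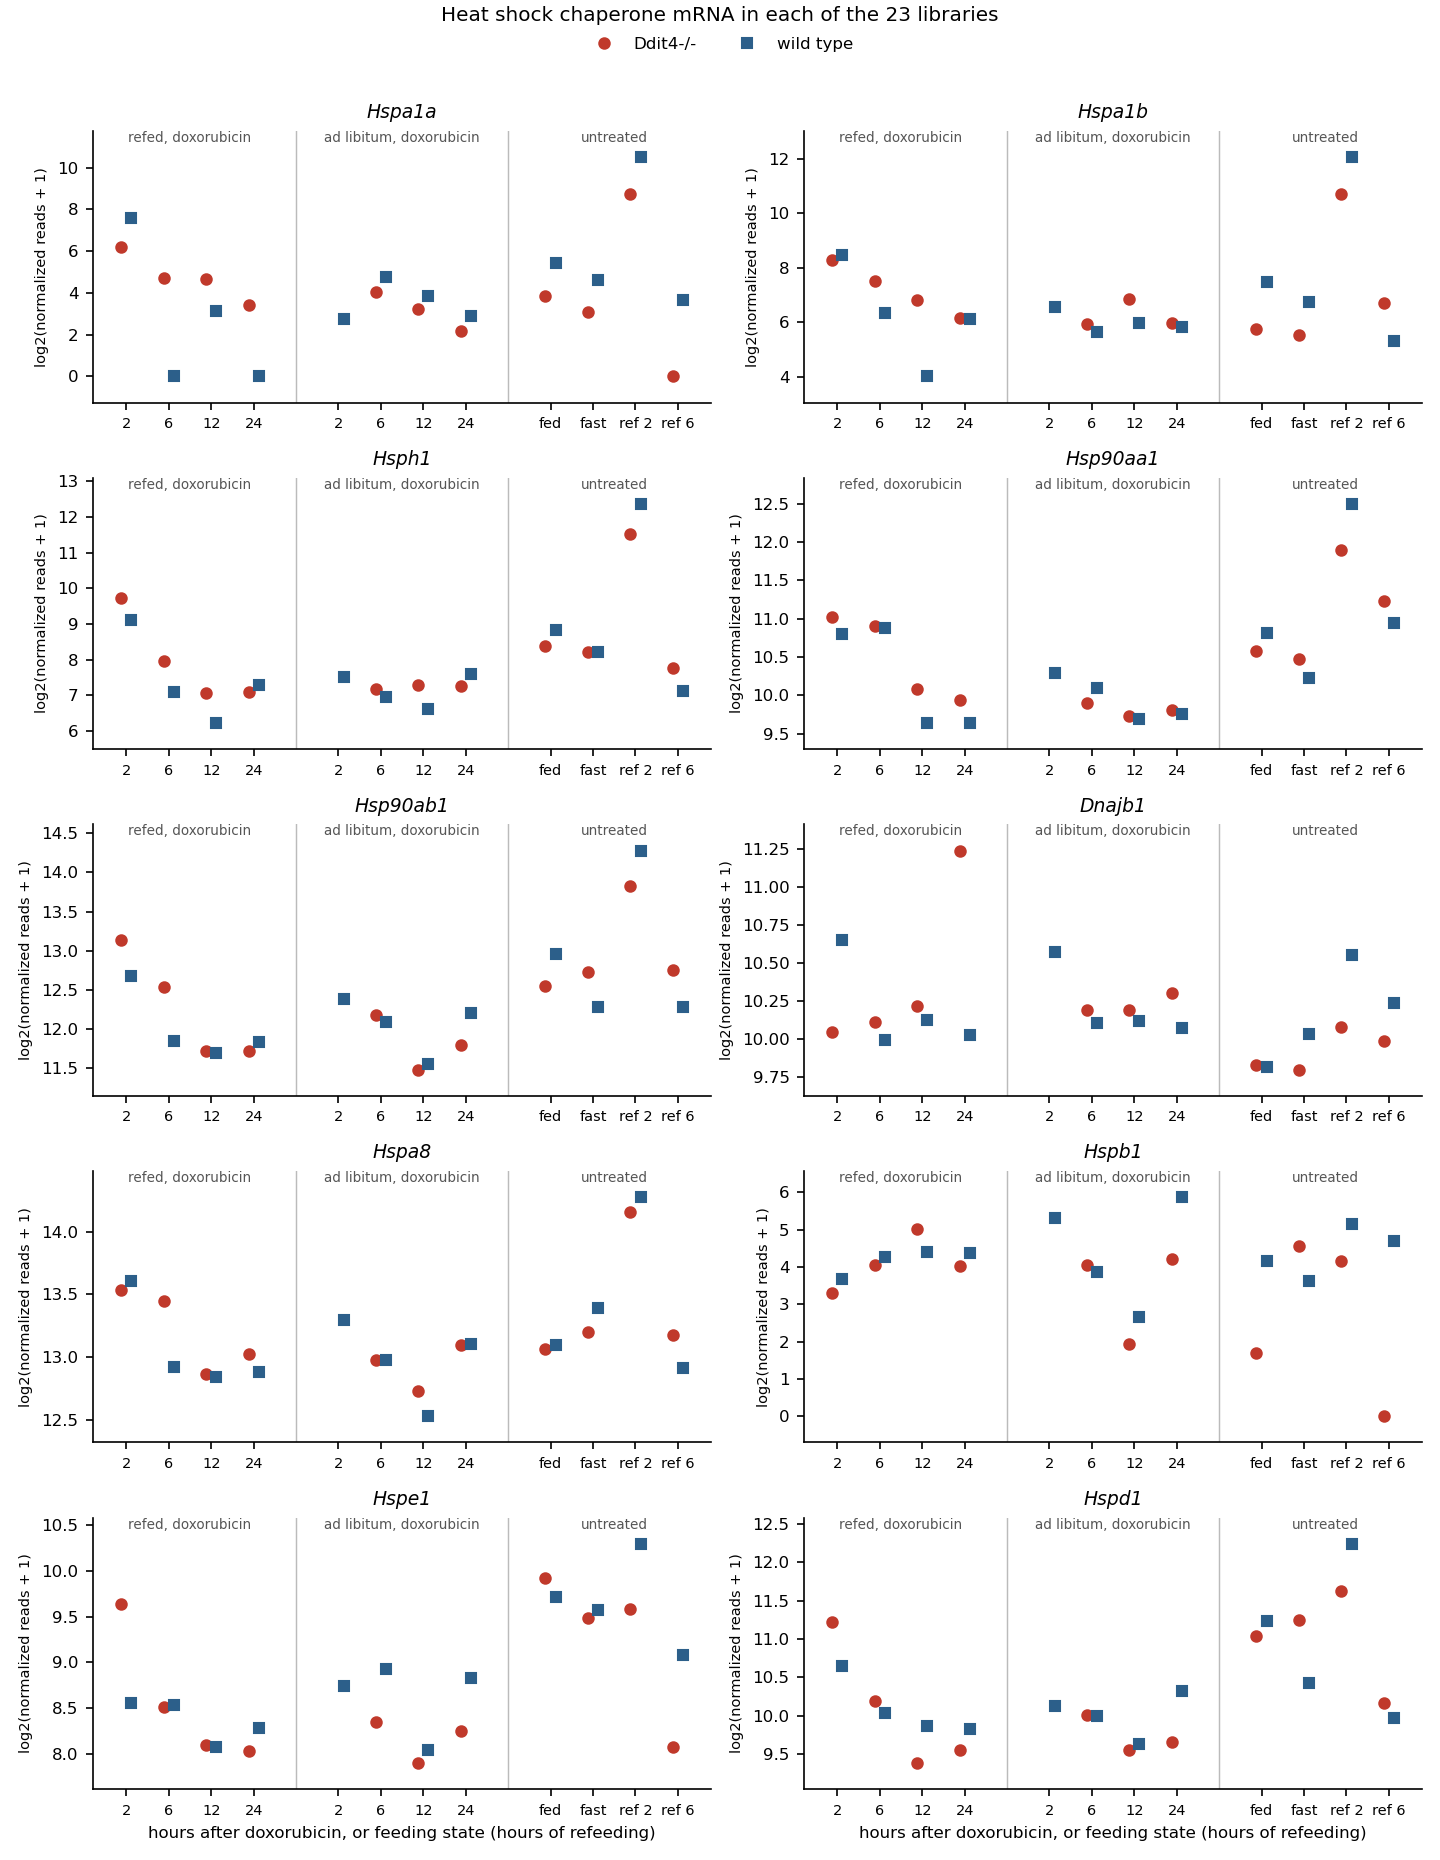
Normalized reads of each chaperone in all 23 libraries on a log2(value + 1) axis, with knockout libraries as red circles and wild-type libraries as blue squares, each point 1 library; ticks give hours after doxorubicin (left and middle blocks) or, in untreated mice, the feeding state. In 7 of the 10 panels both untreated libraries refed 2 h stand above the other 21 libraries, as they do for 3.84% of all genes tested, while Dnajb1, Hspb1 and Hspe1 do not show this.

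Per kilobase of exon, Hspa8, the constitutive HSP70 of the cytosol, and Hsp90ab1, the constitutive HSP90, had the highest median levels, at 2031 and 1658 normalized reads per kilobase over 23 libraries. Hspd1 (421), Dnajb1 (345), Hsp90aa1 (319) and Hspe1 (254 normalized reads per kilobase) formed a middle tier. The inducible HSP70 genes lay far lower, with Hspa1b at 28.8 and Hspa1a at 4.43 normalized reads per kilobase. So did the small heat shock protein gene Hspb1, at 16.3, and Hsph1, between Hspb1 and Hspa1b. Within each tier the ranges over libraries overlapped. The order changed in the wild-type untreated library refed 2 h, where Hspa1b reached 1511 normalized reads per kilobase, beside 1469 for Hsp90aa1, and Hsph1 reached 725, beside 851 for Hspe1. The 10 genes together took 2843 and 4069 CPM of the gene reads in the knockout and wild-type untreated libraries refed 2 h, and 625 to 1662 CPM in the other 21.

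Refeeding for 2 h was set against fasting in untreated mice to ask what the return of food did to these genes. The inducible HSP70 gene Hspa1b, the HSP110 gene Hsph1, both cytosolic HSP90 genes and the constitutive Hspa8 rose, and no chaperone fell. These 5 of 10 passed the test (limma, adjusted over all genes), against 0.251% of the 11939 genes in either direction and 0.142% that rose. The 10 were chosen with earlier results of these data known, so such contrasts, here and below, are descriptions only. The median log2 change of the 10 was 1.32, beside 0.03 for all genes tested. Hspa1b had 1659 normalized reads in the knockout and 4236 in the wild-type library refed 2 h, against 45.0 and 105.8 in the fasted knockout and wild-type libraries. Its log2 change was 5.24 ± 0.78 (SE, 2 libraries per condition; limma, adjusted p = 0.00955). These refed libraries were above every other library, as was so for 3.84% of all genes tested. The next highest value was 355 in the wild-type refed library 2 h after doxorubicin.

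Hsph1, whose protein reloads HSP70, had 2966 (knockout) and 5269 (wild type) normalized reads after 2 h of refeeding, against 299 (knockout) and 298 (wild type) in fasted mice, a log2 change of 3.72 ± 0.37 (limma, adjusted p = 0.000282). It had the smallest p of the 11939 genes in this comparison. Hsp90aa1, the stress-responsive HSP90, had 3810 and 5774 normalized reads in the refed knockout and wild-type libraries, against 1423 and 1202 in the fasted ones (log2 change 1.84 ± 0.21, limma, adjusted p = 0.000803). For both genes the refed values were above all other 21 libraries, the fasted ones included, as was so for 3.84% of all genes tested. Hsp90ab1 had 14504 and 19876 normalized reads in the refed knockout and wild-type libraries, against 6788 and 4999 in the fasted ones (log2 change 1.54 ± 0.25, limma, adjusted p = 0.0170). Hspa8 had 18277 and 19851 in the refed knockout and wild-type libraries, against 9387 and 10773 in the fasted ones (log2 change 0.92 ± 0.17, limma, adjusted p = 0.0365). Hspa8 thus had the smallest change of the 5, on the highest starting level.

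The other 5 chaperones did not pass at 2 h in limma. DESeq2 on recovered reads called 7 of the 10, with Hspa1a (DESeq2, adjusted p = 0.0129) and Hspd1 (DESeq2, adjusted p = 0.0325) among them, and edgeR called 4. Hspa1a, the near-identical partner of Hspa1b, had 428 and 1438 normalized reads in the refed knockout and wild-type libraries, against 7.50 and 23.6 in the fasted ones, with a log2 change of 5.76 ± 1.48 (limma, adjusted p = 0.151). Its error was wide, and 3 of the 23 libraries had 0 Hspa1a reads. Summed, Hspa1a and Hspa1b had 2087 and 5674 normalized reads in the refed knockout and wild-type libraries, against 52.5 and 129 in the fasted ones. Hspa1a made up 14.3% to 25.3% of their summed reads in these 4 libraries, with both refed libraries above both fasted ones. Of the mitochondrial pair, Hspd1 had 3165 and 4842 normalized reads in the refed knockout and wild-type libraries, against 2424 and 1370 in the fasted ones (log2 change 1.10 ± 0.29, limma, adjusted p = 0.166). Hspe1 had 768 and 1254 against 714 and 759 in the same order (0.41 ± 0.34). Dnajb1, the J-domain partner of HSP70, had 1082 and 1499 against 890 and 1048 (0.40 ± 0.29) and missed the threshold (limma, adjusted p = 0.794). Its libraries did not overlap, but the share of all genes without overlap was not computed for this comparison. Hspb1 had 16.8 and 34.2 against 22.5 and 11.4 normalized reads, which overlap, and its largest value anywhere came from 53 reads.

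Markers of other cell types moved with the same comparison. All 7 fat tissue markers tested were higher after 2 h of refeeding (median log2 change 6.28, 0 called), and Adipoq stood at 230 and 123 normalized reads in the refed knockout and wild-type libraries, against 3.75 and 0 in the fasted ones. The 8 listed fat markers summed to 8097 and 5423 in the refed libraries, with none at 0, against 2330 and 3414 in the fasted ones, where 2 and 7 of the 8 were at 0. Cidec made up most of each sum, at 4469 and 4009 in the refed libraries and 2233 and 3414 in the fasted ones. The sums therefore understate the change of the other fat markers, such as Adipoq. The wild-type library fed ad libitum and taken 2 h after doxorubicin had an Adipoq of 422 and a fat marker sum of 8517, with Hsph1 at 182 and Hspa1b at 93.2. All 7 Paneth cell markers were also higher (median log2 change 1.58, 0 called), with sums of 23494 and 55175 in the refed libraries against 17083 and 9792 in the fasted ones and none at 0. The ad libitum untreated libraries had Paneth sums of 21944 and 27734 with Hsph1 at 335 and 455. The part of tissue content in the rise was not tested beyond these values, and in whole tissue fewer cells of a type and less RNA per cell cannot be told apart.

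The rise of Hsph1 and of Hsp90aa1 passed under all 34 alternative settings, with log2 changes of 3.16 to 4.28 and 1.48 to 2.26. The other 3 calls were less stable, with Hspa8 losing its call under 14 alternatives, Hsp90ab1 under 5 and Hspa1b under 4. The count of 5 became 2 without the wild-type library refed 2 h, 2 without the fasted knockout library and 3 without the fasted wild-type library. It was also 2 when the 3 libraries without Y-linked reads were left out and 2 without the 2 with pancreatic transcripts. Hspa1b had a log2 change of 5.31 without the Y-lacking libraries (limma, adjusted p = 0.0830) and of 4.52 without the pancreatic ones (limma, adjusted p = 0.118).

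**Figure D2:**
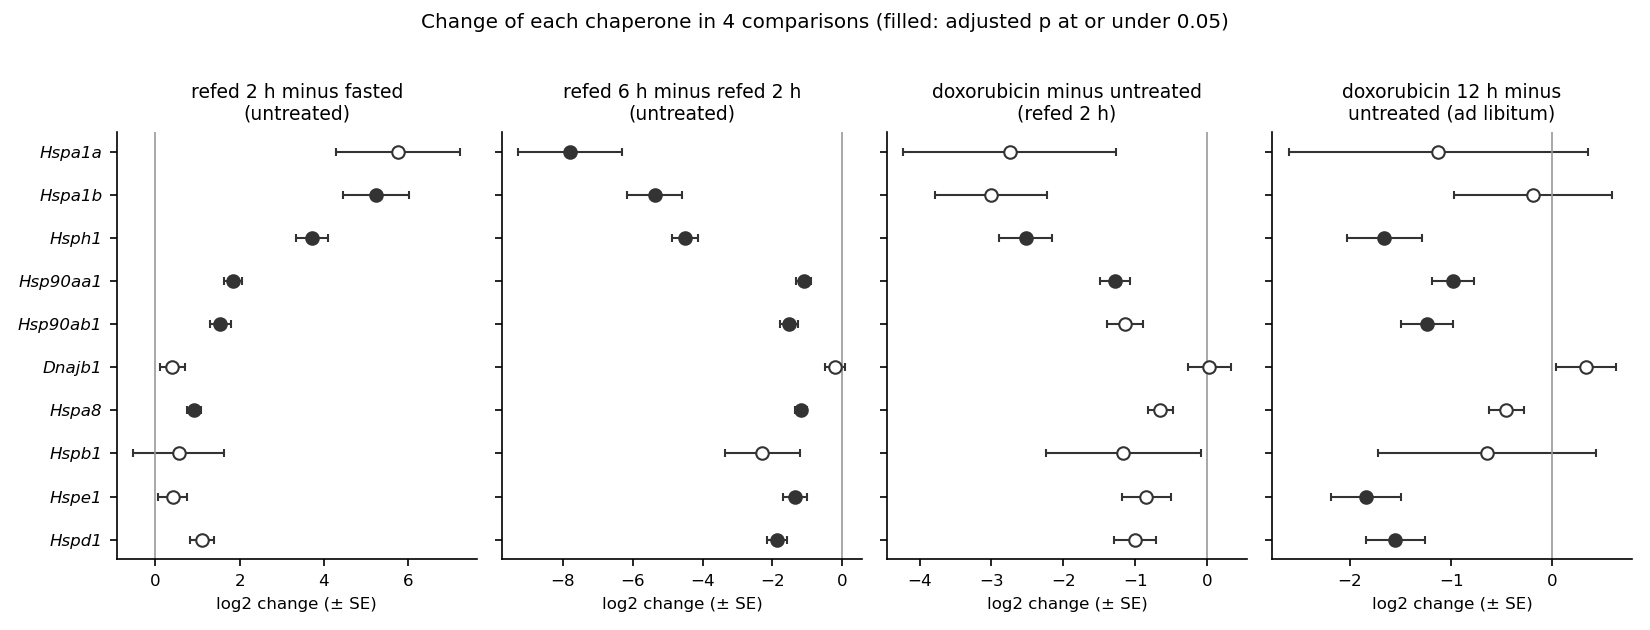
Log2 change of each chaperone with its standard error in 4 comparisons, each from a linear model over 23 libraries with 2 libraries per condition; filled points passed an adjusted p of 0.05. After 2 h of refeeding the 10 changes lie at or above 0.40, and between 2 and 6 h of refeeding all 10 are below 0.

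At 6 h of refeeding, against the libraries refed 2 h, 8 of the 10 chaperones fell, all but Dnajb1 and Hspb1, beside 9% of all genes changed and 5.4% that fell. The median log2 change of the 10 was -1.70, against -0.05 over all genes. Hsph1 had 217 and 139 normalized reads in knockout and wild-type mice refed 6 h, against 2966 and 5269 at 2 h (log2 change -4.50 ± 0.37, limma, adjusted p = 1.84e-05), and it passed under all 34 alternatives. Hspa1b had 103 and 38.4 normalized reads at 6 h, against 1659 and 4236 at 2 h, a log2 change of -5.37 ± 0.78 (limma, adjusted p = 0.00302). Hspa1a was at 0 reads in the knockout and 7 in the wild-type library at 6 h. Among the others, Hspd1 fell by 1.87, Hsp90ab1 by 1.54, Hspe1 by 1.37, Hspa8 by 1.18 and Hsp90aa1 by 1.10 on the log2 scale. For each of these 8 both libraries at 6 h were below both at 2 h, as was so for 27.6% of all genes tested.

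The 6 h libraries also differed in tissue content. Of 7 Paneth cell markers 5 fell between 2 and 6 h (median log2 change -3.30), with sums of 3185 and 6575 at 6 h against 23494 and 55175 at 2 h, and 4 of 7 fat markers fell. Of 4 red blood cell markers 1 rose and the other 3 had positive changes, with sums of 300 and 2874 at 6 h against 122 and 233 at 2 h. Without the wild-type library refed 2 h the count of fallen chaperones was 1. Against fasted mice, the levels at 6 h were called only for Hsp90aa1, which rose, against 7.02% of all genes changed and 3.56% that rose. It had 2405 and 1978 normalized reads in knockout and wild-type mice refed 6 h, against 1423 and 1202 in fasted mice (log2 change 0.74 ± 0.21, limma, adjusted p = 0.0437). That call was lost under 17 of the 34 alternatives. Fasting itself, set against ad libitum feeding, called 0 of the 10 in limma, with 0 at an unadjusted p under 0.05 and 0 in edgeR and DESeq2, beside 0.343% of all genes. The largest of these log2 changes was 1.16 ± 1.08 for the sparse Hspb1, and Hsph1 had 299 and 298 normalized reads in fasted against 335 and 455 in ad libitum mice.

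Doxorubicin was compared with no drug in mice refed 2 h. The time of the drug-treated mice counts from the drug, and equal hours of refeeding in both groups are assumed. The part of refeeding time in the differences was not tested. With the drug 9 of 10 differences were negative, and Hsph1 and Hsp90aa1 fell, 2 of 10, against 0.0335% of all genes (4 genes) in either direction and 0.0251% that fell. The median log2 difference of the 10 was -1.15, beside -0.02 for all genes. Hsph1 had 855 and 552 normalized reads in knockout and wild-type mice with doxorubicin, against 2966 and 5269 without it (log2 difference -2.52 ± 0.37, limma, adjusted p = 0.0239). Hsp90aa1 had 2081 and 1787 with doxorubicin, against 3810 and 5774 without (log2 difference -1.28 ± 0.21, limma, adjusted p = 0.0392). Hspa1b had 306 and 355 with doxorubicin, against 1659 and 4236 without, and missed the threshold (log2 difference -3.00 ± 0.78, limma, adjusted p = 0.158). Hsp90ab1 had 9033 and 6563 against 14504 and 19876 (-1.14 ± 0.25, limma, adjusted p = 0.0909), Hspa8 11838 and 12450 against 18277 and 19851 (-0.65 ± 0.17), and Hspd1 2394 and 1601 against 3165 and 4842 (-0.999 ± 0.29). Both drug-treated libraries were below both untreated ones for 8 of the 10, the exceptions being Hspe1 and Dnajb1, and for 23.8% of all genes tested. Dnajb1 had a log2 difference of 0.03 ± 0.29.

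With doxorubicin and 2 h of refeeding, Hsph1 (855 and 552) and Hspa1b (306 and 355) still lay above the fasted libraries, at 299 and 298 for Hsph1 and 45.0 and 105.8 for Hspa1b, a comparison that was not tested. The Paneth marker sums were 30584 and 8195 with doxorubicin against 23494 and 55175 without, and Adipoq was at 36.5 and 12.8 normalized reads against 230 and 123. Of 7 fat markers 6 had a negative difference and 0 were called. Red blood cell markers were higher with the drug for 4 of 4 (median log2 difference 3.34, 0 called, 4 at an unadjusted p under 0.05), with sums of 1637 and 928 with doxorubicin, none at 0, against 122 and 233 without, where Hba-a2, Hbb-bt and Alas2 were at 0 in the knockout. The part of these tissues in the lower chaperone levels was not tested. The wild-type library with doxorubicin is 1 of the 4 whose title says untreated. Without those 4 the count of fallen chaperones was 0, and Hsph1 had a log2 difference of -2.20 (limma, adjusted p = 0.0954). In the knockout libraries, whose titles do not conflict with the drug label, Hsph1 stood at 855 with the drug and 2966 without. DESeq2 on recovered reads called 5 of the 10 and edgeR 2. Without the wild-type untreated library refed 2 h, or without its doxorubicin counterpart, the count was 0. At 6 h of refeeding, doxorubicin against no drug called 0 of 10 in limma, with 0 at an unadjusted p under 0.05 and 0 in edgeR and DESeq2, beside 0% of all genes. There Hsph1 had 250.5 and 136 normalized reads with the drug, against 217 and 139 without. The wild-type library with the drug at 6 h is again 1 of the 4 with conflicting titles. Its untreated counterpart held pancreatic transcripts, with a marker sum of 167532 normalized reads.

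In mice fed ad libitum, doxorubicin was compared with no drug at 6, 12 and 24 h. The 3 comparisons share the same untreated pair, taken at 0 h, so no untreated library matches the later times. The HSP90 genes, Hsph1 and the mitochondrial chaperonin genes had their most negative differences at 12 h, when 5 of the 10 fell, beside 9% of all genes changed and 4.21% that fell. Hsp90ab1 had 2864 and 3009 normalized reads in knockout and wild-type mice 12 h after doxorubicin, against 6024 and 7976 in untreated mice (log2 difference -1.24 ± 0.25, limma, adjusted p = 0.00828). Hsph1 had 155 and 97.3 against 335 and 455 (-1.66 ± 0.37, limma, adjusted p = 0.0125), and Hsp90aa1 847 and 829 against 1535 and 1791 (-0.98 ± 0.21, limma, adjusted p = 0.00945). Hspe1 had 238 and 263 normalized reads against 969 and 840 (-1.84 ± 0.34, limma, adjusted p = 0.00503), and Hspd1 748 and 789 against 2104 and 2411 (-1.55 ± 0.29, limma, adjusted p = 0.00513). The differences of the mitochondrial pair were here larger in size than those of the HSP90 genes, and after 2 h of refeeding they were smaller, neither of which was tested. Hspa1b had a log2 difference of -0.19 ± 0.78, with 115 and 61.8 normalized reads in drug-treated knockout and wild-type mice against 53.1 and 175 in untreated ones, which overlap.

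At 6 h of doxorubicin 0 of 10 passed in limma, with 5 at an unadjusted p under 0.05, 1 in edgeR and 4 in DESeq2, beside 1.34% of all genes. The log2 differences were -1.55 ± 0.37 for Hsph1 (limma, adjusted p = 0.0515), -1.18 ± 0.34 for Hspe1 and -1.14 ± 0.29 for Hspd1. At 24 h Hsp90aa1 (-0.91 ± 0.21, limma, adjusted p = 0.0276) and Hspd1 (-1.15 ± 0.29, limma, adjusted p = 0.0415) fell, 2 of 10, against 3.11% of all genes changed and 1.37% that fell. At all 3 times Hsph1, Hsp90aa1, Hsp90ab1, Hspe1 and Hspd1 were lower in both drug-treated libraries than in both untreated ones. Such lower values at all 3 times were found for 13.4% of all genes tested. Dnajb1 was higher in both drug-treated libraries at each time, with log2 differences of 0.33, 0.33 and 0.36 that did not pass. The share of all genes higher at all 3 times was not computed. At 12 h, 4 of 6 smooth muscle markers fell (median log2 difference -2.26), with sums of 194 and 511 normalized reads against 2765 and 736, and 2 of 7 Paneth markers fell, with sums of 8040 and 4408 against 21944 and 27734, while 2 of 10 enterocyte markers rose. At 24 h, 2 of 6 smooth muscle markers fell (median -2.08), with sums of 257 and 721 against 2765 and 736. All 7 Paneth markers were lower at 24 h (median -1.29, 0 called), with sums of 7401 and 13961 against 21944 and 27734. All 7 fat markers were higher at 24 h (median 2.66, 0 called), with sums of 4429 and 4160 against 2907 and 2531. Most of each sum was Cidec, at 3583 and 3573 against 2887 and 2438, so the sums understate the change of the other fat markers. Their part in the falls was not tested. The count of 5 at 12 h was 0 without the knockout library at 12 h, 3 without the wild-type one and 2 without the untreated wild-type library. The count of 2 at 24 h was 0 without either untreated library or without the knockout library at 24 h.

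In refed mice given doxorubicin, Hsph1 and Hsp90aa1 fell between the early and the late times. Hsph1 in the knockout stood at 855, 250.5, 134 and 135 normalized reads at 2, 6, 12 and 24 h, and in the wild type at 552, 136, 74.0 and 155. Hsp90aa1 stood at 2081, 1908, 1084 and 986 in the knockout and at 1787, 1884, 798 and 799 in the wild type. Every library at 12 or 24 h was below every library at 2 or 6 h for Hsp90aa1, and for Hsph1 the wild-type library at 24 h lay above the wild-type library at 6 h. Tested as 12 and 24 h against 2 and 6 h, Hsp90aa1 (log2 difference -1.07 ± 0.15, limma, adjusted p = 0.00679) and Hsph1 (-1.56 ± 0.26, limma, adjusted p = 0.0332) fell, 2 of 10, against 0.0921% of all genes and 0.0754% that fell. Dnajb1 and Hspb1 had positive differences and did not pass. Red blood cell markers were lower in the same comparison for 4 of 4 genes tested (median log2 difference -2.68, 0 called), with sums of 72.5 to 402 normalized reads at 12 and 24 h and 632 to 1637 at 2 and 6 h, and Alas2, Hba-a2 or Hbb-bt at 0 in 3 of the 4 late libraries and none at 0 early. Paneth markers were lower for 7 of 7 (median -1.15, 0 called), with sums of 2767 to 7313 late and 4259 to 30584 early, and smooth muscle markers for 6 of 6 (median -1.16, 1 called), with sums of 247 to 456 late and 406 to 806 early. Their part in the falls was not tested. DESeq2 called 5. Without the 4 libraries with conflicting titles the count was 1, without the knockout library at 2 h it was 0 and without the wild-type library at 2 h it was 5.

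Refed and ad libitum mice were compared after doxorubicin in 7 pairs matched on genotype and time. The 4 wild-type pairs each hold a refed library with a conflicting title. Limma called 0 of 10 (1 at an unadjusted p under 0.05, and 0 in edgeR and DESeq2), beside 0% of all genes. That 1 was Hsp90aa1, which was higher in the refed library in 5 of 7 pairs (log2 difference 0.37 ± 0.14, limma, adjusted p = 0.754). The difference between the late pairs (12 and 24 h, 4 pairs) and the early pairs (2 and 6 h, 3 pairs) also gave 0 of 10, with 3 at an unadjusted p under 0.05, 0 in edgeR and DESeq2, and 0% of all genes. Those 3 were Hspa1b, Hsph1 and Hsp90aa1, each higher in the refed library of all 3 early pairs. Hsp90aa1 averaged a log2 difference of 0.08 in the late pairs and 0.77 in the early pairs (limma, adjusted p = 0.767 for the difference).

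Knockout and wild-type libraries were compared over 11 condition pairs, 7 with doxorubicin and 4 untreated. Limma called 0 of 10 chaperones, with 0 at an unadjusted p under 0.05 and 0 in edgeR and DESeq2, beside 0.578% of all genes. The genes of the higher tiers had log2 differences with small errors, at 0.06 ± 0.07 for Hspa8, 0.05 ± 0.09 for Hsp90aa1, 0.06 ± 0.11 for Hsp90ab1, -0.05 ± 0.12 for Hspd1, 0.02 ± 0.13 for Dnajb1 and -0.19 ± 0.15 for Hspe1. Hsph1 had 0.19 ± 0.16. The sparse genes were less well measured, with 0.21 ± 0.33 for Hspa1b, -0.20 ± 0.63 for Hspa1a and -0.88 ± 0.46 for Hspb1. In the untreated pair refed 2 h, all 10 chaperones were lower in the knockout library, which is 1 of the 3 that lack Y-linked reads, and this pair alone cannot be tested. The log2 differences there were -1.35 for Hspa1b, -0.83 for Hsph1, -0.60 for Hsp90aa1 and -0.12 for Hspa8. In the refed pair 12 h after doxorubicin 9 of the 10 were higher in the knockout. These were the most one-sided of the 11 pairs, and the fasted untreated pair and the refed pair 2 h after doxorubicin each had 5 of 10 higher. The share of all genes lower or higher in the same pairs was not computed, so neither count is read as a result about the chaperones.

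**Figure D3:**
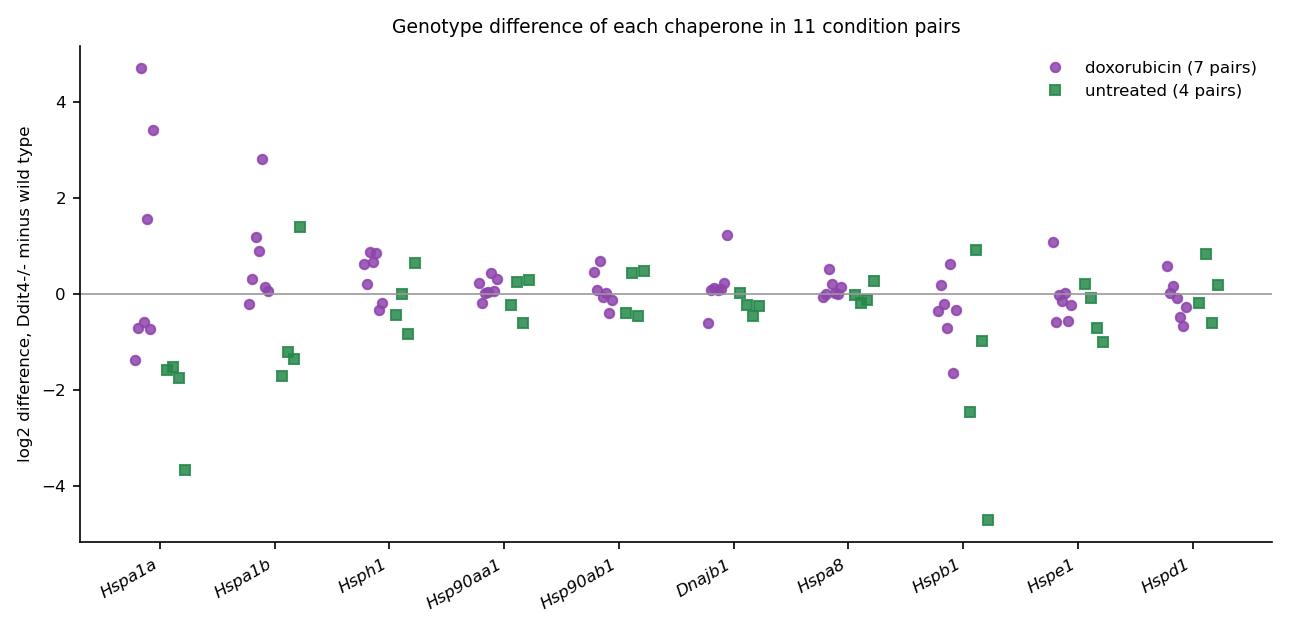
Log2 difference, knockout minus wild type, of each chaperone in each of 11 condition pairs, with doxorubicin pairs as purple circles and untreated pairs as green squares. For Hspa1b and for Dnajb1 6 of 7 doxorubicin pairs lie above 0 and 3 of 4 untreated pairs below it, while Hspa8 stays between -0.20 and 0.53. In 3 of the 4 untreated pairs the knockout library lacks Y-linked reads.

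A genotype by drug term, which asks if the knockout effect differs with doxorubicin, called 0 of 10 in limma, with 2 at an unadjusted p under 0.05 and 0 in edgeR and DESeq2, beside 0% of all genes. Those 2 were Hspa1b and Hspa1a. Hspa1b was higher in the knockout in 6 of 7 doxorubicin pairs and in 1 of 4 untreated pairs, with a difference of 1.46 ± 0.61 on the log2 scale (limma, adjusted p = 0.979). The 3 untreated pairs where it was lower (ad libitum, fasted and refed 2 h) hold the 3 knockout libraries that lack Y-linked reads. In the untreated pair refed 6 h its log2 difference was 1.40. For Hspa1b the drug and the Y-lacking libraries therefore cannot be told apart in this term. Hspa1a was higher in 3 of 7 doxorubicin and 0 of 4 untreated pairs (3.03 ± 1.11, limma, adjusted p = 0.979), and 3 of its 23 values were 0 reads.

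The chaperones did not all vary together over the 23 libraries. By Pearson's r of log2 values, given as a description of libraries that share conditions, Hsph1 and Hsp90ab1 were among the closest (r = 0.94 over 23 libraries, 0.85 over the 21 without the untreated libraries refed 2 h). Hsph1 and Hspa1b had 0.92 and 0.75, and Hspe1 and Hspd1, which share the stretch with 4 units shown above, had 0.89 and 0.86. Dnajb1 stayed between -0.28 and 0.24 with the other 9. It was highest in the refed knockout library 24 h after doxorubicin, at 2417 normalized reads, the next library being the wild-type refed library 2 h after doxorubicin at 1606. Its range over 23 libraries, 890 to 2417, was narrower on the log2 scale than that of any other chaperone (SD 0.32), followed by Hspa8 (SD 0.42).

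**Figure D4:**
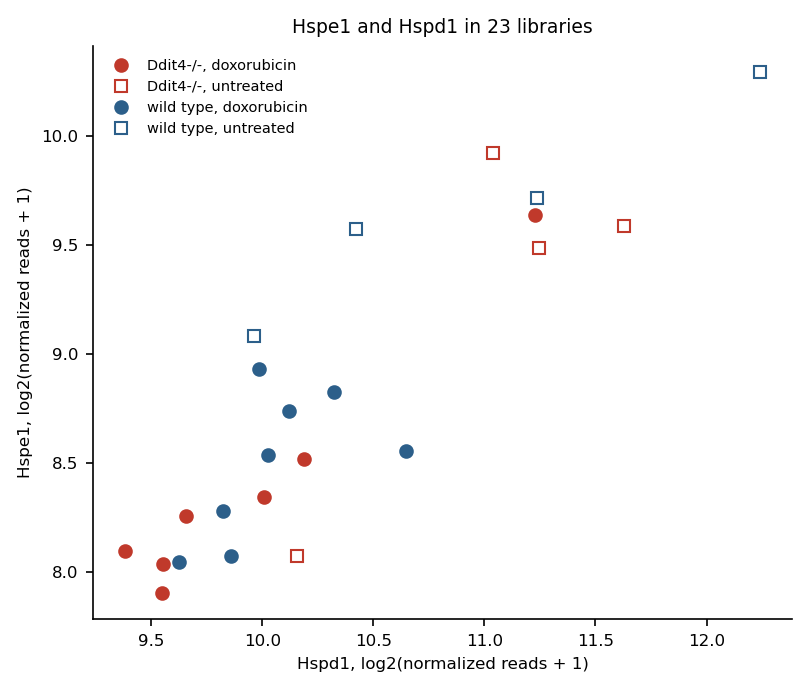
Log2(normalized reads + 1) of Hspe1 against Hspd1 in 23 libraries. The genes lie on opposite strands, with 1 of the 2 RefSeq starts of Hspd1 216 bases from the Hspe1 start. Filled circles are doxorubicin and open squares untreated, red knockout and blue wild type. The points run together from the doxorubicin libraries at 12 and 24 h to the wild-type untreated library refed 2 h, with r = 0.89.

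The genes outside the 10 whose levels ran most like the mean standardized level of the chaperones, among 9373 genes with a mean of at least 50, were Hnrnpu (r = 0.93), Cct8 and Mogs (0.89 each), Hsp90b1 (0.88), Stip1 and Nup62 (0.87 each), and Fkbp4, Gtpbp4, Aldh1b1 and Sfpq (0.86, 0.86, 0.86 and 0.855). Of these, Hsp90b1 encodes the HSP90 of the endoplasmic reticulum, Cct8 a subunit of the cytosolic chaperonin TRiC, and Stip1 and Fkbp4 cochaperones of HSP90. Without the 2 untreated libraries refed 2 h the r of Hnrnpu was 0.84 and that of Stip1 0.61.

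Other parts of the folding machinery were followed from listed genes. Of 24 heat shock cochaperones tested, 2 rose after 2 h of refeeding against fasting, Stip1, which links HSP70 to HSP90 (log2 change 1.37 ± 0.24, limma, adjusted p = 0.0258), and Chordc1, an HSP90 cochaperone (1.25 ± 0.20, limma, adjusted p = 0.0158). Of all genes tested, 0.142% rose in this comparison. The list's median was 0.59, and 19 of 24 changes were positive, while the share of all genes with a positive change was not computed. Bag3, which links HSP70 to autophagy, had 1.32 ± 0.29 and missed the threshold (limma, adjusted p = 0.0889), as did Fkbp4 (0.94 ± 0.22, limma, adjusted p = 0.0941). Between 2 and 6 h of refeeding 8 of 24 fell, among them Ppid, Fkbp4, Stip1, Chordc1 and Dnaja1 at log2 changes of -1.59, -1.15, -1.15, -1.13 and -0.94. At 12 h of doxorubicin in ad libitum mice 3 of 24 fell, Fkbp4 (-1.19), St13 (-1.08) and Cacybp (-0.82). The shares of all genes that fell in these 2 comparisons were 5.4% and 4.21%.

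Of 13 chaperones of the endoplasmic reticulum, 1 rose after 2 h of refeeding, Hyou1, the HSP110 relative of that compartment (1.17 ± 0.16, limma, adjusted p = 0.00654), and all 13 changes were positive (median 0.69). In mice refed 2 h Hyou1 was also lower with doxorubicin than without (-1.16 ± 0.16, limma, adjusted p = 0.0239), the 1 of 13 called, and all 13 differences were negative. From 2 to 6 h of refeeding 8 of 13 fell, led by Pdia4 (-1.62) and Manf (-1.45). The TRiC subunits, which fold actin and tubulin, had 0 of 8 called after 2 h of refeeding (4 at an unadjusted p under 0.05; median 0.34). Between 2 and 6 h 7 of 8 fell (median -0.78), and at 12 h of doxorubicin 5 of 8 fell, the most Cct3 (-1.28 ± 0.20, limma, adjusted p = 0.00164). Of 9 mitochondrial chaperones and proteases beside Hspd1 and Hspe1, 0 passed after 2 h of refeeding (1 at an unadjusted p under 0.05), and at 12 h of doxorubicin 3 fell, Trap1 (-1.22), Dnaja3 (-1.09) and Clpp (-0.89). Beside these lists, 0.142% of all genes rose after 2 h of refeeding and 0.0251% fell with doxorubicin at 2 h of refeeding. Between 2 and 6 h 5.4% fell, and at 12 h of doxorubicin 4.21% fell. Shares of all genes by sign alone were not computed.

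**Figure D5:**
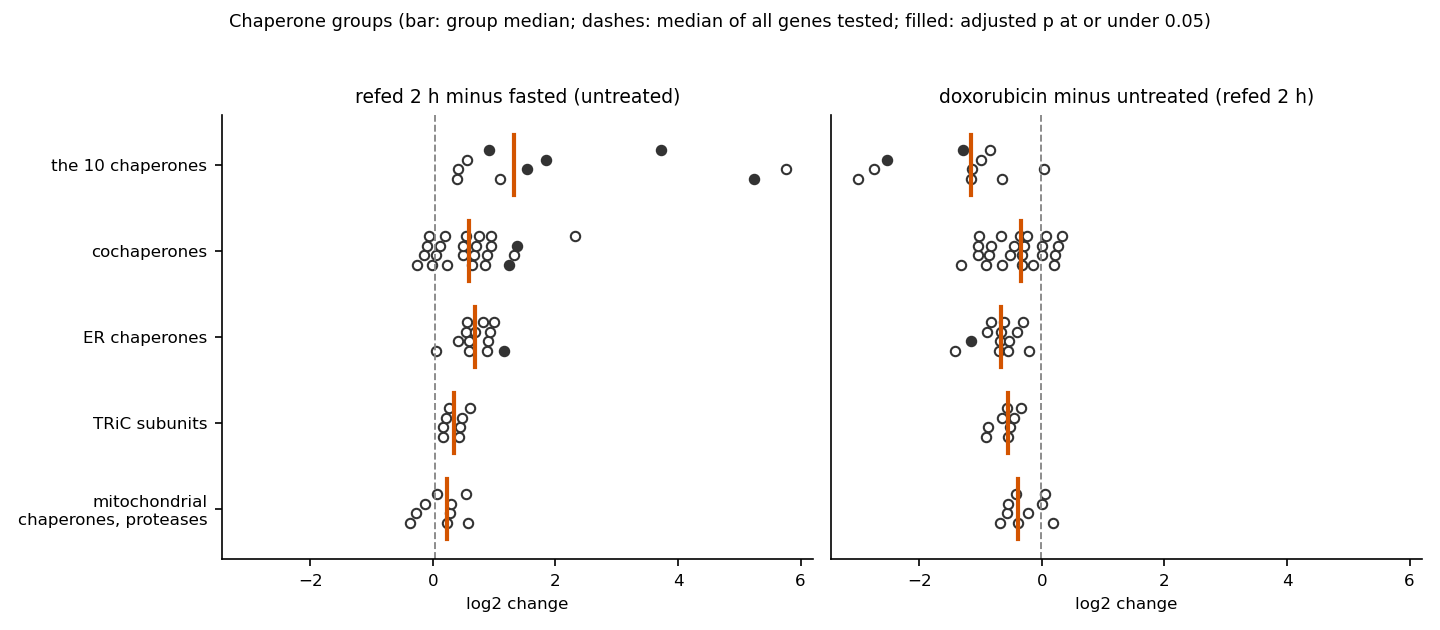
Log2 change of every gene in 5 chaperone lists, after 2 h of refeeding against fasting (left) and with doxorubicin against without at 2 h of refeeding (right); each point is a gene, bars are list medians, dashes the median of all genes and filled points passed an adjusted p of 0.05. List medians run from 0.23 to 1.32 on the left and from -0.34 to -1.15 on the right.

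The transcription factor Hsf1 had a log2 change of 0.36 ± 0.29 after 2 h of refeeding and did not pass, and neither did Hsf2 (-0.30 ± 0.62). Hsf2 fell at 6 h of refeeding against fasting (-2.13 ± 0.62, limma, adjusted p = 0.0488). Of the cold-inducible RNA-binding protein genes, which rise when cells cool, Cirbp fell after 2 h of refeeding (-1.94 ± 0.32, limma, adjusted p = 0.0170) and Rbm3 had 0.32 ± 0.34. Cirbp had a log2 difference of 1.02 ± 0.32 with doxorubicin against without in mice refed 2 h (limma, adjusted p = 0.240). Of the small heat shock protein genes other than Hspb1, 3 of 5 had enough reads to test, and 0 of 3 passed after 2 h of refeeding (0 at an unadjusted p under 0.05).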

How the data were processed

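Poly-A RNA of whole proximal small intestine was sequenced as 150-base pairs from a library that does not keep strand, per the labels' protocols. The deposited table holds a normalized signal per gene and library, made by the authors with Trim Galore, STAR and DESeq2 on mm10, per the submitters' processing notes, which give no versions. How reads in overlapping or near-identical genes were assigned is not given in the sources used here. All values were within 0.01 of whole multiples of 1 read (worth 0.705 to 1.67 normalized reads by library), so whole reads could be recovered, 11418115 to 23428519 per library.

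The 11939 genes averaging 10 or more were tested on a log2(value + 1) scale, so fold changes of genes with few reads depend on the added 1. Linear models (limma 3.58.1 with a mean trend, R 4.3.3) had a term for each of 12 conditions and 1 for genotype over 23 libraries. The refed and ad libitum comparison used 14 doxorubicin libraries in 7 pairs, and the genotype by drug term was added to the model of all libraries. P-values are 2-sided with Benjamini-Hochberg adjustment over all genes, called at 0.05. Alternatives were edgeR 4.0.16 and DESeq2 1.42.0 on recovered reads, TMM or quantile scaling, a pseudocount of 5, no filter or a mean of 50, other model terms and leaving out libraries. The scripts were tested on simulated data. Promoter windows are RefSeq's (GRCm38.p6), with Hspa8, Hsp90aa1 and Hsp90ab1 not matched. Figures were drawn with matplotlib 3.10.9 in Python 3.11.15.

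The 10 chaperones, the gene lists and the left-out sets were chosen with earlier results of these data known. Genes named beside the 10 are those of the lists that passed (up to 5 by smallest p) with list genes set beside them, and the 10 genes most correlated with the chaperones' mean standardized level.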

Additional observations from a re-analysis of the deposited data

Results flagged for a closer look

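Hsph1 was picked out among the 10 chaperones because its difference between refed and ad libitum mice after doxorubicin had opposite signs early and late. The share of all genes with such a split of signs was not computed. Hsph1 was lower in the refed library of all 4 pairs at 12 and 24 h (log2 differences of -0.39 to -0.17) and higher in the refed library of all 3 pairs at 2 and 6 h (0.14 to 1.60). The late minus early difference was -1.12 ± 0.35 on the log2 scale and missed the threshold (limma, adjusted p = 0.803). In the 4 wild-type pairs, 1 at each time, the refed library is among the 4 with conflicting titles, and the pair at 2 h is wild type only.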

How the results depend on the processing

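Of 25 called chaperone changes, each under 34 alternatives, 748 of 850 values kept the call and direction, 102 lost the call and 0 reversed. Leaving out 1 library at a time gave 2 to 5 called chaperones for 2 h of refeeding against fasting, 1 to 9 for 6 against 2 h, 0 to 2 for 6 h against fasting, 0 to 2 for doxorubicin at 2 h of refeeding, 0 to 1, 0 to 5 and 0 to 3 for ad libitum mice 6, 12 and 24 h after doxorubicin, and 0 to 5 for late against early doxorubicin. For 2 h of refeeding against fasting the count of 5 was 2 with the Y-lacking libraries left out and 2 without those with pancreatic transcripts, and it was 4 with edgeR and 7 with DESeq2. For 6 h against fasting the count of 1 was 0 with no filter, with quantile scaling, with edgeR, without the Y-lacking and without the pancreatic libraries, and 2 without those with conflicting titles. For doxorubicin at 2 h of refeeding the count of 2 was 1 with no filter, 5 with DESeq2 and 0 without the conflicting titles. At 6 h in ad libitum mice the count of 0 was 1 with a mean of 50, 1 with edgeR, 4 with DESeq2, 2 without the conflicting titles and 1 without the pancreatic libraries. At 24 h the count of 2 was 1 with no filter, 1 with edgeR, 4 with DESeq2 and 0 without the Y-lacking libraries. For late against early doxorubicin the count of 2 was 5 with DESeq2 and 1 without the conflicting titles. The cause of these moves was not tested. No replicate number is shared between groups in the labels, so none was used as a block, and the 7 refed and ad libitum pairs are matched on genotype and time. At a depth of 11418115 reads or more, Hspa1a and Hspb1 still had 0 reads in 3 and 1 libraries, which limits their tests.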
